A study of Mus with 12 samples.

Results

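The response of wild-type (WT) mouse macrophages to oxidised low-density lipoprotein (oxLDL) was compared across all genes in 6 of the 12 libraries of the study: 3 libraries of untreated WT cells and 3 of WT cells that carry the treatment label oxLDL. The libraries were chosen by their labels and not by any measured value. The source is given as primary peritoneal macrophages, cells of the lining fluid of the abdomen, and both groups carry the genotype label WT with no altered allele. The library titles say LDL where the treatment label says oxLDL, the untreated libraries have no treatment label, and the labels give no dose, time, strain or age. The protocol text speaks of an adipose RNA, which does not match the stated source. The remaining 6 libraries are the corresponding knockout groups, and the series title names the kinase WEE1 and the NF-κB subunit p65. The knockout libraries were not compared here. They entered the fit through the filter on low counts, the scaling between libraries and the estimate of the spread between replicates.

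OxLDL is the damaged form of the main cholesterol particle of plasma, and macrophages take it up through scavenger receptors, store its lipid and become foam cells in the artery wall. A macrophage that senses danger signals is known to redirect its metabolism, its protein turnover, its surface receptors and its secretions besides making cytokines. The standard inflammatory genes, taken here as cytokines, chemokines, interferon-response genes, inflammasome genes and components of NF-κB and Toll-like receptor signalling, are therefore set apart below, and the account is of the other programmes and of how abundant each transcript was before and after.

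Poly(A) RNA was sequenced, and the table gives a read count and an FPKM value (fragments normalised to gene length and library size) per gene and library. The 6 libraries held between 53588814 and 76310843 counts, and replicate 2 was the shallowest in both groups. Nothing in the labels says that replicates came from separate animals, so p-values measure the spread between these libraries. The defining macrophage genes were abundant: Lyz2, which encodes lysozyme, was first in rank in all 6 libraries, Cd68 averaged 1629 and 1376 FPKM and Adgre1, which encodes the surface protein F4/80, 545 and 762 FPKM without and with oxLDL. Markers of most other cells were low. The largest sum was that of 6 erythroid and platelet markers, 50.1 to 58.2 FPKM untreated and 43.6 to 47 FPKM with oxLDL, nearly all of it Pf4, while the haemoglobin genes Hba-a1 and Hbb-bs were at or near 0. The summed level of 9 T cell markers was 4.88 to 5.203 FPKM untreated and 1.66 to 1.99 FPKM with oxLDL, and that of 7 dendritic cell markers was 0.352 to 0.489 and 0.189 to 0.348 FPKM. The 9 B cell markers summed to 40.1 to 45.4 and 30.1 to 35.8 FPKM, nearly all of it Ighm and Cd22, while Pax5 was under 1 FPKM. The 8 neutrophil markers in the table summed to 15.1 to 18.3 and 10.7 to 11.7 FPKM with Ly6g at or near 0, and the 11 mesothelial and fibroblast markers to 14.1 to 14.9 and 12.3 to 14.2 FPKM. The part of these cells in the results was not tested, and in bulk RNA fewer cells of a type and less RNA per cell cannot be told apart.

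Of 17291 genes tested with edgeR's quasi-likelihood test, 8848 passed a Benjamini-Hochberg adjusted p of 0.05 (51.2%), of which 4140 rose (23.9% of those tested) and 4708 fell (27.2%). The standard inflammatory lists accounted for few of them: 244 of their 287 tested genes rose and 20 fell, which leaves 3896 rises and 4688 falls among other genes, 1390 and 1900 of them by at least 2-fold. In transcript abundance the inflammatory genes weighed more. They held 3.38, 3.36 and 3.39% of the summed FPKM in the untreated libraries and 11.6, 11.9 and 12.1% with oxLDL, so the groups did not overlap. The direction of small changes depends on the scaling between libraries. The median log2 change of all tested genes was -0.06 with the TMM scaling used here and -0.46 on library totals alone, so a rise smaller than about 0.41 has the opposite sign on library totals. With library totals alone 21.1% of the called genes were higher with oxLDL, against 46.8% with TMM. For each list of genes the median log2 change is therefore given relative to the median of all genes (the relative median), and where library totals turn the balance of a list its counts on that scale stand beside the main ones. FPKM values are scaled to the fragments of the library and so follow library totals, which is why a gene can have a lower FPKM with oxLDL and a TMM change near 0. Ranks by FPKM within a library do not depend on this scaling. Below, FPKM values are given for each library or as group means (± SD, n = 3), and a value in parentheses after them is the fitted log2 change with oxLDL (± SE). Each gene said to have risen or fallen passed edgeR's test at an adjusted p of 0.05 over all genes tested.

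The most abundant transcripts of the cell were largely kept, and a few that had been of middling abundance entered their company. Of the 10 genes with the highest mean FPKM in untreated WT, 8 were still among the 10 highest with oxLDL, as were 71 of the highest 100, 356 of the highest 500 and 768 of the highest 1000. Replicates of one group shared between 95 and 99 of their highest 100, while an untreated and a treated library shared between 69 and 71. Lyz2 and Psap, which encodes the precursor of the lysosomal saposins, held the first and the second place in both groups, and the antigen-presentation light chain B2m went from rank 7 to 4. Ctsd, the gene of the lysosomal protease cathepsin D, went from rank 3 to 5, and Ftl1, the ferritin light chain, from rank 5 to 7. Acod1 and Actb were the entrants into the highest 10. Acod1, which makes itaconate from an intermediate of the tricarboxylic acid cycle, was at 495, 444 and 459 FPKM untreated and 2359, 2529 and 2497 FPKM with oxLDL. Its rank lay between 59 and 64 in the untreated libraries and between 8 and 10 in the treated ones. Actb, which encodes β-actin, was at 912, 869 and 954 FPKM untreated and 2397, 2151 and 2125 FPKM with oxLDL and went from rank 31 to 10. Both had non-overlapping groups and rose by 2.81 ± 0.09 and 1.695 ± 0.06 log2 (SE, n = 3 against 3).

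**Figure D1:**
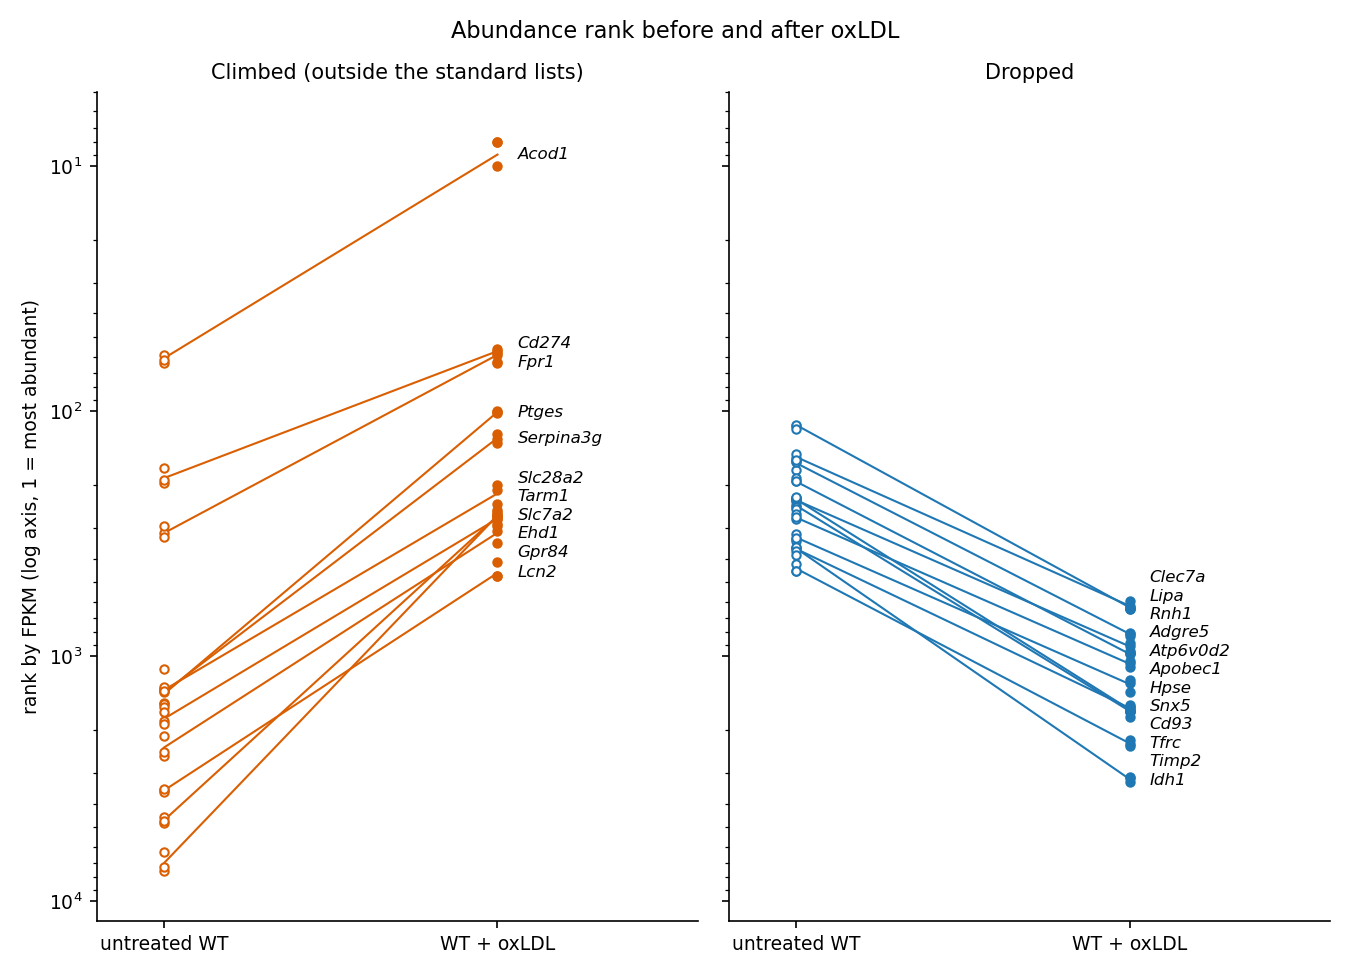
Abundance rank of selected genes by FPKM in untreated WT (left) and WT with oxLDL (right), on a log axis with rank 1 at the top; points are the 3 libraries of each group and lines join the ranks of the group means. The left panel shows genes outside the standard inflammatory lists that climbed, such as Acod1 to rank 9 and Tarm1 to rank 267, and the right panel genes that dropped, such as Idh1 from rank 363 to rank 3176.

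Among the 29 genes that entered the highest 100, 19 belonged to the standard inflammatory lists and 10 did not. The 19 include Marcksl1, an actin-binding protein gene listed with NF-κB and Toll-like receptor signalling (rank 575 to 75). The 10, named after their values were seen, were Cd274, Fpr1, Fpr2, Slamf7, Plek, Msn, Lcp1, Ms4a6c, Ms4a6d and the transcript AW112010. Cd274, which encodes the T cell inhibitory ligand PD-L1, was at 172, 158 and 161 FPKM untreated and 603, 647 and 641 FPKM with oxLDL and climbed from rank 188 to 57. Fpr1 and Fpr2, receptors for formylated bacterial peptides, climbed from rank 315 to 59 and from rank 275 to 82. Plek (pleckstrin, rank 133 to 72), Msn (moesin, which ties the membrane to actin, rank 107 to 86) and Lcp1 (the actin bundler L-plastin, rank 131 to 91) belong to the cell cortex. The 29 genes that left the highest 100 held no gene of the standard lists. They included, likewise named after their values were seen, the fatty acid binding protein gene Fabp5 (rank 54 to 167), the complement gene C1qb (94 to 196), the receptor adaptor Tyrobp (59 to 145), the Fc receptor Fcgr3 (93 to 209) and the ribosomal protein genes Rps3a1 (63 to 122), Rpl4 (97 to 190), Rpl19 (90 to 162) and Rplp0 (78 to 135).

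Over the genes that were among the highest 500 in either group, the 12 largest climbs in log2 rank were Nos2, Il1b, Ccl7, Ptgs2, Cxcl10, Ccl2, Tarm1, Il1a, Tnf, Ccl5, Ccl3 and Slc7a2. All of these but Tarm1 and Slc7a2 are in the standard lists. Nos2, the inducible nitric oxide synthase, went from rank 7083 to 39 and Ptgs2, the inducible cyclooxygenase, from rank 6954 to 137. Tarm1, a receptor of the immunoglobulin superfamily on myeloid cells, was at 4.75, 3.37 and 3.67 FPKM untreated and 149, 161 and 153 FPKM with oxLDL, and its groups lay far apart. It rose by 5.69 ± 0.19 log2 and climbed from rank 6995 to 267. Slc7a2, the cationic amino acid transporter CAT2 that brings arginine into the cell, was at 8.005, 7.597 and 7.86 FPKM untreated and 153, 155 and 154 FPKM with oxLDL and climbed from rank 4680 to 268 (4.71 ± 0.07 log2). Outside the standard lists further climbs, named after their values were seen, were those of Serpina3g, a protease inhibitor (rank 1407 to 129), the nucleoside transporter Slc28a2 (1376 to 217), Ehd1, which recycles endosomes (1802 to 275), the medium-chain fatty acid receptor Gpr84 (2361 to 314) and the iron-chelating lipocalin Lcn2 (3534 to 458).

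The 12 largest drops among abundant genes included enzymes, lysosomal proteins and surface receptors, and none belonged to the standard lists. Idh1, the cytosolic isocitrate dehydrogenase that makes NADPH, was at 95.9, 98.5 and 97.95 FPKM untreated and 11.2, 10.9 and 10.3 FPKM with oxLDL and dropped from rank 363 to 3176 (-2.76 ± 0.04 log2). The 3 treated libraries lay close together and far below the untreated ones. Cd93, a surface lectin-like protein, dropped from rank 229 to 1651 and Tfrc, the transferrin receptor through which cells take in iron, from rank 243 to 1675. Lipa, the lysosomal acid lipase that frees cholesterol from lipoprotein esters, was at 247, 250.3 and 242 FPKM untreated and 67.4, 65.9 and 68.98 FPKM with oxLDL and dropped from rank 114 to 633 (-1.46 ± 0.03 log2). Its groups did not overlap. The other drops were of the metalloprotease inhibitor Timp2 (439 to 2269), the proton pump subunit Atp6v0d2 (194 to 980), the ribonuclease inhibitor Rnh1 (163 to 812), the sorting nexin Snx5 (365 to 1629), the β-glucan receptor Clec7a (154 to 624), heparanase Hpse (328 to 1301), the adhesion receptor Adgre5 (231 to 913) and the RNA-editing deaminase Apobec1 (272 to 1075).

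In central carbon metabolism, genes listed with the tricarboxylic acid cycle fell more often than they rose, while Acod1 rose as given above. The list of cycle enzymes also holds cytosolic and NADP-dependent forms that are not steps of the cycle itself, such as Idh1, Idh2 and Mdh1. Of its 20 tested genes 11 fell, 3 of them by at least 2-fold, and 2 rose (relative median -0.25). Besides Idh1, falls of such forms were those of the mitochondrial NADP-dependent Idh2 (14.4 to 4.42 FPKM, -1.29 log2) and the cytosolic malate dehydrogenase Mdh1 (33.05 to 14.6 FPKM, -0.77). Of the cycle itself, the succinate dehydrogenase subunit Sdha fell (67.8 to 33.1 FPKM, -0.62). The largest rise among these listed genes with at least 5 FPKM was that of Dld, a shared subunit of dehydrogenase complexes, at 0.43, or 0.02 on library totals. Nuclear genes of the respiratory chain mostly fell too, 23 of 49 against 2 that rose (1 without replicate 1 of untreated WT). The falls were most frequent in complex I, the entry point for electrons from NADH, where 15 of 24 subunits fell and 0 rose (1 without replicate 1 of WT with oxLDL) (relative median -0.34), with Ndufb10 at 21.6 to 8.96 FPKM (-0.86) and Ndufs7 at 9.65 to 4.31 FPKM (-0.75). Of the 13 mitochondrially encoded subunits 1 rose and 1 fell (0 and 13 on library totals), and 4 rose without replicate 1 of untreated WT. They held 7.09 ± 0.63% of the summed FPKM untreated and 5.85 ± 0.13% with oxLDL, and several share reads with near-identical nuclear copies, so their values are uncertain.

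Some genes of glucose entry and of the control of glycolysis rose, while the list as a whole was split. Slc2a6 and Slc2a1, both glucose transporter genes, rose from 34.6 ± 1.2 to 112 ± 4.7 FPKM (2.11 ± 0.05 log2) and from 9.98 ± 0.72 to 21.99 ± 0.45 FPKM (1.55 ± 0.09). The other transporter listed, Slc2a3, was low at 0.304 and 0.133 FPKM and did not pass at -0.76, but passed as a fall on library totals (-1.17), with the replicate block (-0.71), with the 6 WT libraries alone (-0.76), and without replicate 1 of untreated WT or replicate 3 of WT with oxLDL (-0.96 in both cases). Hk2, the inducible hexokinase, rose by 1.400 ± 0.05, and Pfkfb3, whose product drives phosphofructokinase, was at 15.3, 15.8 and 16.4 FPKM untreated and 55.6, 59.1 and 57.95 FPKM with oxLDL and rose by 2.27 ± 0.05. In the 4 genes that rose here the treated libraries all lay above the untreated ones. In the whole list of 24 glycolysis and lactate genes 12 rose and 7 fell, but 8 and 13 on library totals alone, and the fallen ones included the enzymes Pfkl (29.3 to 14.8 FPKM, -0.58), Tpi1 (93.5 to 48.1 FPKM, -0.55) and Gpi1 (-0.42). Pkm, the pyruvate kinase, did not pass at -0.098, but passed as a fall on library totals (-0.51) and without replicate 2 of untreated WT (-0.15). In the pentose phosphate pathway, which makes NADPH and ribose from glucose, 4 of 8 enzymes fell and 1 rose, with Taldo1 at 109 to 55.6 FPKM (-0.56) and Tkt at 48.2 to 28.2 FPKM (-0.36). Shpk, which makes sedoheptulose phosphate and restrains inflammatory macrophages, was low and fell (1.17 to 0.218 FPKM, -1.98).

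Fatty acid oxidation had the broadest decline of the metabolic lists. Of 28 tested genes 21 fell (75%, against 27.2% of all genes) and 3 rose, with a relative median of -0.69. Both compartments took part, with 12 of 17 mitochondrial and 9 of 11 peroxisomal genes lower. Hadh, the hydroxyacyl-CoA dehydrogenase, was at 5.21, 5.73 and 5.45 FPKM untreated and 0.848, 0.805 and 0.962 FPKM with oxLDL and fell by 2.23. Acox3, a peroxisomal acyl-CoA oxidase, fell from 17.05 ± 0.94 to 3.92 ± 0.18 FPKM (-1.71 ± 0.05) and the thiolase Acaa2 from 21.997 ± 1.2 to 5.45 ± 0.66 FPKM (-1.61 ± 0.10). The coactivator Ppargc1b, which drives mitochondrial gene expression, fell by 0.97. Cpt1a, the gate through which long fatty acids enter mitochondria, was at 28.3 ± 0.89 and 19.7 ± 0.39 FPKM and passed with a change of -0.11 ± 0.04, which did not pass with RLE size factors or DESeq2 (-0.07 with both), with the 6 WT libraries alone, without replicate 1 or 3 of untreated WT, or without any one treated library. Acadl, a long-chain dehydrogenase, was the largest riser with at least 5 FPKM, at 0.44, or 0.03 on library totals.

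**Figure D2:**
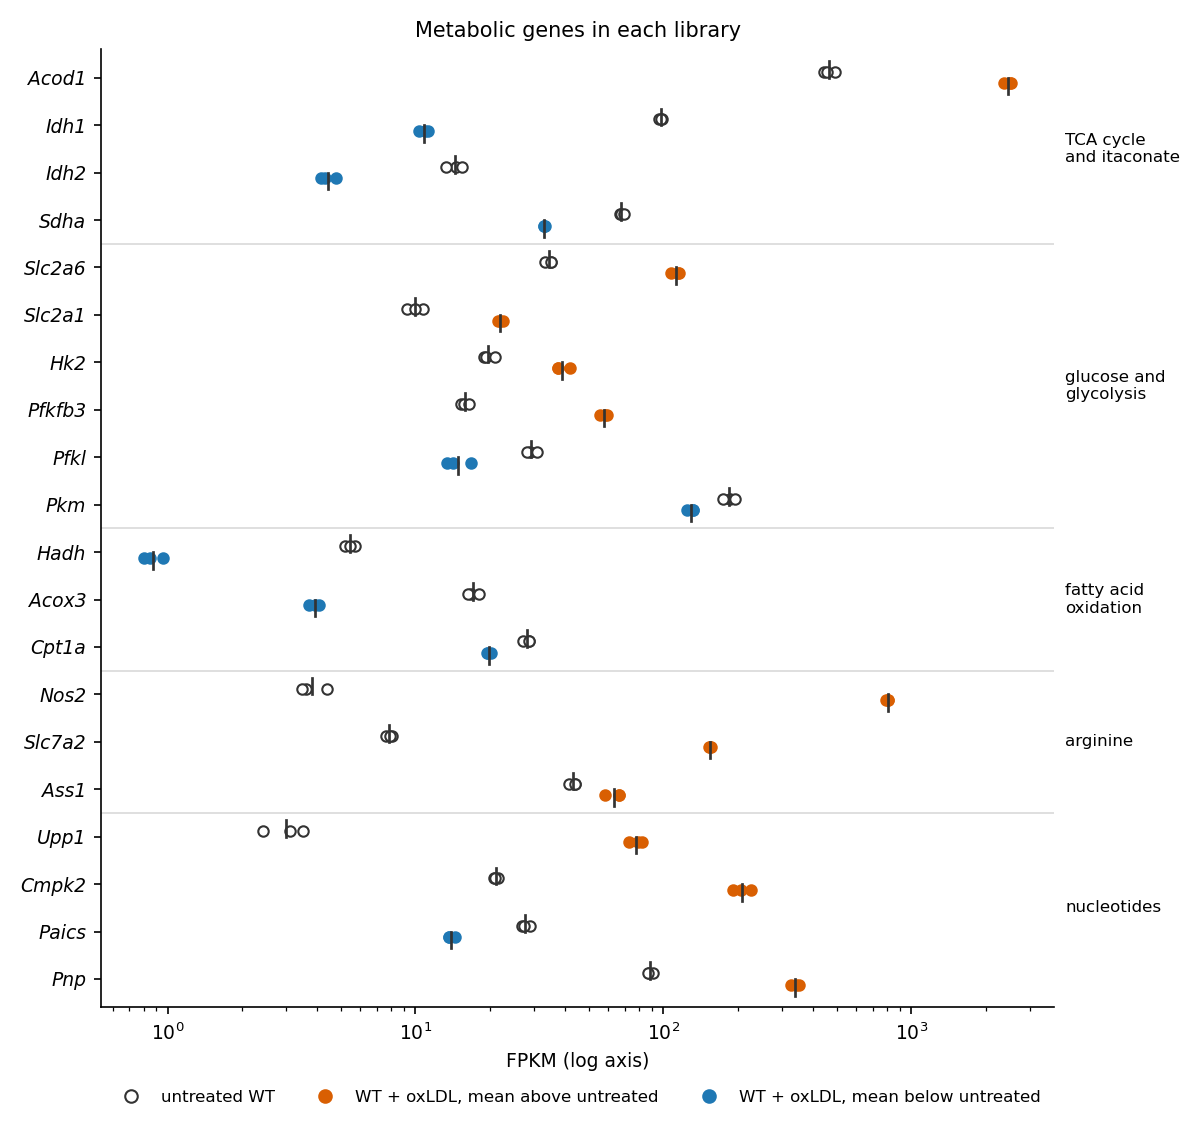
FPKM of 20 metabolic genes in each of the 3 untreated WT libraries (open circles) and the 3 WT libraries with oxLDL (filled circles), on a log axis, grouped by pathway; short bars mark group means. The circles of the 2 groups stand apart for Acod1, Idh1, Hadh and Pfkfb3, and lie closest together for Pkm, Cpt1a and Ass1.

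Some genes of arginine uptake and use rose, while the arginine and polyamine list was split. Of its 16 genes 7 rose and 6 fell (3 and 8 on library totals). Among the 8 genes of arginine use 4 rose and 3 fell (3 and 3 on library totals), and the lowest change was -0.93. Nos2 rose from 3.83 ± 0.48 to 803 ± 8.4 FPKM and its transporter gene Slc7a2 as given above, and Gch1, which makes the synthase's cofactor, rose from 3.72 ± 0.3 to 11.9 ± 0.57 FPKM (2.09 ± 0.11). Ass1, which rebuilds arginine from citrulline, rose by 0.97 ± 0.10. Arg1, the arginase of alternatively activated macrophages, did not pass, at 5.74 ± 1.2 and 5.07 ± 0.52 FPKM, and Arg2 rose by 0.66 but did not pass on library totals (0.25). In the polyamine branch 3 of 8 genes rose and 3 fell (0 and 5 on library totals alone). Amino acid transporters split, with 10 of 18 rising and 6 falling (8 and 8 on library totals): the cystine carrier Slc7a11 rose from 6.33 to 40.7 FPKM (3.09) and the peptide and histidine carrier Slc15a3 from 95.9 to 296 FPKM (2.04), while Slc43a2, which carries large neutral amino acids, fell from 49.9 to 8.12 FPKM (-2.21) and the lysosomal Slc36a1 from 36.7 to 8.79 FPKM (-1.65). Folate-cycle genes moved apart as well. Mthfd2, a mitochondrial enzyme of the cycle, rose by 1.47, while Mtr, the methionine synthase (-1.45), and Mthfd1 (-1.09) fell.

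Nucleotide genes mostly fell, and a few rose steeply. Of 26 tested genes 16 fell and 6 rose (relative median -0.39). The fallen ones included enzymes of new synthesis such as Paics (27.8 to 13.9 FPKM, -0.59), Gart (11.6 to 6.12 FPKM, -0.52) and Umps (7.91 to 4.11 FPKM, -0.54). Upp1, the uridine phosphorylase, was at 3.51, 2.42 and 3.12 FPKM untreated and 72.8, 78.9 and 81.7 FPKM with oxLDL and rose by 5.08 ± 0.24, with treated libraries far above untreated ones. Pnp, the purine nucleoside phosphorylase, rose from 88.4 ± 2.1 to 340.3 ± 13 FPKM (2.35 ± 0.06), and Cmpk2, a mitochondrial kinase of pyrimidine nucleotides that is also induced by interferon, by 3.702 ± 0.13. Samhd1, which degrades deoxynucleotides, rose by 1.49. The list held 0.14% of summed FPKM untreated and 0.321% with oxLDL, so its summed share was higher although most of its members fell. Around NAD, Nampt, the salvage enzyme, rose from 111 to 213 FPKM (1.35) and the NAD-consuming surface enzyme Cd38 from 40.5 to 174 FPKM (2.51), and among 16 tryptophan and NAD genes 4 rose and 4 fell (4 and 5 on library totals).

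Iron genes changed in both directions. Of 26 tested genes 11 rose and 13 fell. On the intake side Tfrc was at 129, 141 and 128 FPKM untreated and 21.9, 23.9 and 23.4 FPKM with oxLDL, with no overlap (-2.12 ± 0.06), and Steap3, which reduces iron in endosomes, fell from 10.7 to 1.38 FPKM (-2.54). Slc39a14, a carrier for iron not bound to transferrin, rose from 1.96 to 6.92 FPKM (2.22). Fth1, the ferritin heavy chain, averaged 2282 and 2481 FPKM and stood at rank 10 and then 8. Slc40a1, which encodes the iron exporter ferroportin, was low and fell from 1.86 to 0.319 FPKM (-2.13), and the haem exporter Flvcr1 fell from 32.6 to 7.89 FPKM (-1.64). Hmox1, which breaks down haem, rose from 281 ± 6.5 to 567 ± 11 FPKM (1.42 ± 0.05). The largest rises were those of secreted proteins. Lcn2 was at 11.2, 11.1 and 11.5 FPKM untreated and 88.2, 102 and 92.02 FPKM with oxLDL (3.47 ± 0.16), and the ferroxidase Cp rose from 5.26 ± 0.14 to 36.7 ± 1.1 FPKM (3.21 ± 0.10).

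Lysosomal transcripts stayed among the most abundant of the cell, and their share went down. The 42 lysosomal genes held 17.3 ± 0.24% of summed FPKM untreated and 12.03 ± 0.078% with oxLDL. By edgeR's test 22 fell and 9 rose, and their relative median was near that of all genes at -0.08. Of 14 hydrolases other than proteases 10 fell, with Lipa as above and the glucuronidase Gusb from 135 to 66.98 FPKM (-0.603). Atp6v0d2, a proton pump subunit, fell from 160.5 ± 1.5 to 42.1 ± 0.88 FPKM (-1.52 ± 0.04) and Atp6v0a1 from 61.1 to 25.4 FPKM (-0.86). Ctsc, the protease that activates granule enzymes, rose from 101 to 174 FPKM (1.19) and the chloride exchanger Clcn7 from 171 to 263 FPKM (1.03). Autophagy genes fell in 18 of 34 cases and rose in 9, with Atg7, an activating enzyme of autophagosome formation, at 16.5 to 5.66 FPKM (-1.14) and the lysosomal master regulator Tfeb at 5.37 to 1.82 FPKM (-1.14). Its relative Mitf rose by 0.78 (0.37 on library totals), and the cargo receptor Sqstm1 rose from 195 to 335 FPKM (1.18). Among 40 mTOR and nutrient-sensing genes 22 fell and 10 rose, the largest falls being the stress sensor Sesn1 (12.98 to 1.25 FPKM, -2.96) and Rragd, a GTPase that places mTOR on lysosomes (7.13 to 1.01 FPKM, -2.41).

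Genes of the proteasome, which degrades tagged proteins, rose together. Of 36 proteasome subunits 31 rose and 0 fell, with a relative median of 0.61. On library totals alone 19 rose and 7 fell. The relative median takes out a shift common to all genes, so it could hardly differ on that scale. The subunits of the immunoproteasome, the form that cuts peptides for class I presentation, rose in 5 of 5 cases on both scales. Psmb8 was at 26.3, 26.2 and 26.9 FPKM untreated and 56.6, 36.9 and 39.4 FPKM with oxLDL (1.15 ± 0.14), Psmb10 rose by 1.11 ± 0.06 and the activator Psme2 from 103 ± 1.9 to 173 ± 21 FPKM (1.16 ± 0.08). The class I pathway that uses these peptides rose in 16 of 20 genes and fell in 3, or in 1 without replicate 1 of untreated WT. Nlrc5, the transcriptional activator of class I genes, rose from 24.1 ± 0.35 to 71.9 ± 0.88 FPKM (1.98 ± 0.04), and the peptide transporter genes Tap1 and Tap2 by 1.68 ± 0.05 and 1.62 ± 0.07. The heavy chains, already abundant, changed less: H2-K1 rose by 0.53 but did not pass on library totals (0.12), and H2-D1 at 0.23 and B2m at 0.38 turned to -0.18 and -0.03 on library totals. Class I genes of this family resemble one another, so reads may have been shared between them.

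**Figure D3:**
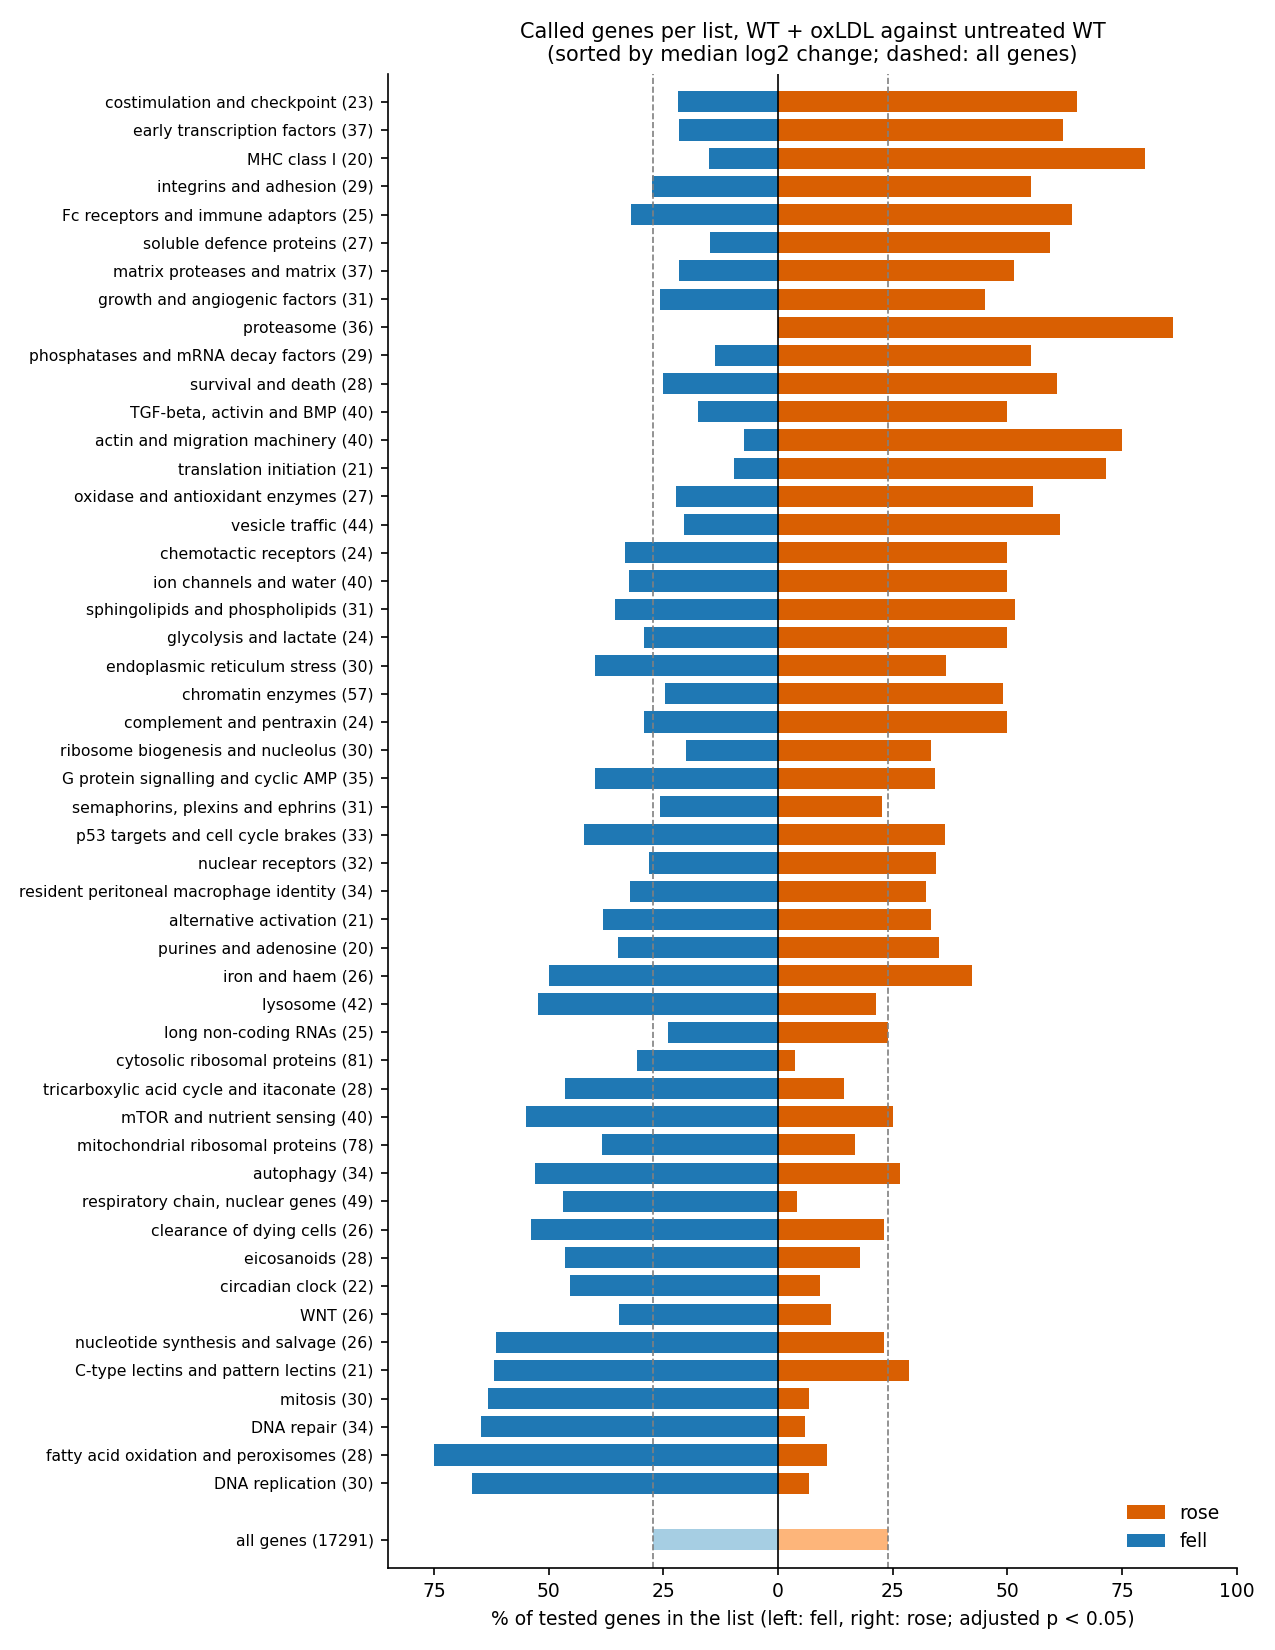
Share of the tested genes of the 50 lists with at least 20 tested genes that rose (right, orange) or fell (left, blue) with oxLDL in WT by edgeR's quasi-likelihood test at an adjusted p of 0.05, sorted by the median log2 change; the bar labelled all genes gives 23.9% and 27.2%. Costimulation, early transcription factor, class I, and integrin and adhesion genes stand at the top, and DNA replication, fatty acid oxidation, DNA repair and mitosis genes at the bottom.

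Genes of protein synthesis showed small changes. Of 81 cytosolic ribosomal proteins 25 fell and 3 rose, and 0 of either passed 2-fold (1 rose and 72 fell on library totals). The count of falls was 16 without replicate 2 of untreated WT, 15 without replicate 1 of WT with oxLDL and 14 without its replicate 2. Rpl36 fell from 47.6 to 20.7 FPKM (-0.78), and many of these genes have processed copies that can share reads. The list held 2.27 ± 0.034% of summed FPKM untreated and 1.61 ± 0.051% with oxLDL. Of 78 mitochondrial ribosomal proteins 30 fell and 13 rose. Among 21 translation initiation and elongation factors 15 rose and 2 fell (7 and 8 on library totals alone), the falls numbering 1 without replicate 1 or 3 of untreated WT or replicate 2 or 3 of WT with oxLDL, with Eif4g2 at 98.9 to 193 FPKM (1.37) and Eif4b at 78.7 to 39.3 FPKM (-0.59). Aminoacyl-tRNA synthetases rose in 8 of 19 cases and fell in 5 (3 and 12 on library totals), and ribosome biogenesis factors rose in 10 of 30 and fell in 6 (2 and 21). Endoplasmic reticulum chaperones fell in 8 of 14 cases and rose in 2, while 5 of 7 stress targets rose and 0 fell, such as Ppp1r15a (8.75 to 17.8 FPKM, 1.43) and Asns, the asparagine synthetase (1.31). Ddit3, the pro-death factor CHOP, did not pass at 13.99 and 10.2 FPKM and fell on library totals (-0.46).

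In the eicosanoid pathway some genes of prostaglandin E2 synthesis rose steeply, while the list as a whole fell more often than it rose. Of 28 tested genes 5 rose (17.9%, against 23.9% of all genes) and 13 fell. Prostanoid synthesis was split, with 5 of 11 genes rising and 5 falling (4 and 5 on library totals). Ptgs1, the other cyclooxygenase gene, ranked between 8358 and 8736 in the untreated libraries and between 9662 and 10870 in the treated ones. Ptgs2 was at 4.35, 3.89 and 3.69 FPKM untreated and 268, 261 and 265 FPKM with oxLDL (6.46 ± 0.19) and Ptges, the microsomal prostaglandin E synthase, at 29.7, 26.6 and 29.7 FPKM untreated and 353, 360.3 and 361 FPKM with oxLDL (4.05 ± 0.11). In both genes the groups lay far apart. Pla2g4a, which frees arachidonic acid from membranes, rose by 1.96 ± 0.06. Synthases of other prostanoids fell, with the prostaglandin D synthase Hpgds at 17.2 to 5.82 FPKM (-1.15) and the thromboxane synthase Tbxas1 at 10.4 to 4.79 FPKM (-0.702). Of 12 leukotriene and lipoxin genes 6 fell and 0 rose (1 without replicate 2 of untreated WT), among them Alox5ap, the helper of 5-lipoxygenase, from 127 ± 4.4 to 48.8 ± 1.6 FPKM (-0.97 ± 0.06) and Lta4h, which makes leukotriene B4, from 10.999 to 2.94 FPKM (-1.49). Sphingolipid and phospholipid genes rose in 16 of 31 cases and fell in 11 (6 and 19 on library totals), with the lysosomal phospholipase Pla2g15 showing the largest fall, from 66.6 ± 1 to 9.27 ± 0.77 FPKM (-2.43 ± 0.06).

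Receptors that guide migration changed in both directions. Of 14 chemoattractant receptors other than those for chemokines 9 rose and 4 fell (6 and 6 on library totals), and of 10 chemokine receptors 3 rose and 4 fell. Leaving out replicate 1 of WT with oxLDL left 2 falls in each of these groups. The same was so for the chemokine receptors without replicate 1 of untreated WT, and for the others without replicate 2 of either group. Fpr1 was at 107, 115 and 108 FPKM untreated and 600.4, 638 and 635 FPKM with oxLDL (2.92 ± 0.17), Gpr84 rose from 17.4 ± 1.6 to 134 ± 8.3 FPKM (3.35 ± 0.10) and Gpr18 from 1.04 ± 0.14 to 14.8 ± 0.99 FPKM (4.22 ± 0.18). Cxcr4, the receptor that holds leukocytes in tissues, was at 40.2, 39.5 and 37.5 FPKM untreated and 2.61, 3.41 and 2.98 FPKM with oxLDL (-3.299 ± 0.08), and the acid-sensing receptor Gpr65 fell from 28.3 to 4.86 FPKM (-2.14). The monocyte chemokine receptor Ccr2 and the fractalkine receptor Cx3cr1 were under 1 FPKM in both groups. Among Fc receptors and their adaptors 16 of 25 rose and 8 fell, with Fcgr1 at 40.9 to 131 FPKM (2.09) and Pilra at 25.3 to 87.4 FPKM (2.19), while Trem2, a lipid-sensing receptor of foam cells, was at 76.7, 80.2 and 87.3 FPKM untreated and 22.6, 20.2 and 22.5 FPKM with oxLDL (-1.49 ± 0.06). Trem1, its relative that amplifies inflammation, rose from 0.0611 to 1.65 FPKM (5.15, or 4.53 without replicate 1 of untreated WT). Of 21 lectins 13 fell and 6 rose; Clec7a fell from 186 to 68.5 FPKM (-1.03) and the mannose receptor Mrc1 from 41.7 to 17.5 FPKM (-0.85), and Clec4e, the receptor Mincle, rose from 459 ± 18 to 1216 ± 54 FPKM (1.81 ± 0.05) to rank 22.

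Costimulatory and inhibitory ligands had the highest median of all lists. Of 23 tested genes 15 rose (65.2%, against 23.9% of all genes) and 5 fell, with a relative median of 1.51. Slamf1 rose from 0.0826 to 5.02 FPKM (6.27), Tnfsf15 from 3.36 ± 0.1 to 30.6 ± 1.3 FPKM (3.595 ± 0.09) and Tnfsf9 from 3.41 ± 0.17 to 30.8 ± 3.1 FPKM (3.58 ± 0.21). Some inhibitory receptors fell: Havcr2, which encodes TIM-3, was at 11.3, 11.8 and 11.2 FPKM untreated and 0.487, 0.681 and 0.449 FPKM with oxLDL (-4.01 ± 0.12), Vsir, which encodes VISTA, fell from 52.8 ± 0.32 to 7.87 ± 0.57 FPKM (-2.34 ± 0.05) and Cd200r1 from 40.2 to 13.9 FPKM (-1.13). The second PD-1 ligand gene, Pdcd1lg2, stayed under 1 FPKM in all 6 libraries. In the clearance of dying cells 14 of 26 genes fell and 6 rose. The TAM receptor Axl rose from 12.3 ± 0.56 to 66.7 ± 1.8 FPKM (2.85 ± 0.06) while its bridging ligand Gas6 fell from 16.7 ± 0.93 to 2.84 ± 0.13 FPKM (-2.15 ± 0.06) and the bridging protein Mfge8 from 40.8 to 18.9 FPKM (-0.702). Cd300lb, a receptor for phosphatidylserine, fell from 43.5 ± 1.8 to 2.92 ± 0.31 FPKM (-3.48 ± 0.07), and Mertk was at 57.04 and 58.7 FPKM, with 0.45 on the TMM scale and 0.04 on library totals.

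Complement, coagulation and other secreted proteins included abundant transcripts that rose. Of 24 complement and pentraxin genes 12 rose and 7 fell (6 and 13 on library totals). Cfb, the alternative pathway's factor B, was at 651, 605 and 629 FPKM untreated and 1478, 1502 and 1557 FPKM with oxLDL (1.68 ± 0.10), C3 rose from 324 ± 28 to 627 ± 26 FPKM (1.36 ± 0.07) and the pentraxin Ptx3 from 0.0815 to 3.54 FPKM (5.75). C1qa, a chain of the first complement component, fell from 156 to 90.1 FPKM (-0.39). In the coagulation list 8 of 18 genes rose and 5 fell (6 and 8 on library totals): factor X (F10) rose from 87.4 ± 4.5 to 261 ± 5.3 FPKM (1.98 ± 0.05) and the protein C receptor Procr from 8.17 ± 0.41 to 66.7 ± 2 FPKM (3.43 ± 0.10), while the anticoagulant thrombomodulin Thbd fell from 13.8 ± 1.2 to 1.41 ± 0.061 FPKM (-2.88 ± 0.07). Soluble defence proteins rose in 16 of 27 cases and fell in 4, with the acute-phase protein Saa3 at 748, 802 and 757 FPKM untreated and 1129, 1321 and 1408 FPKM with oxLDL (1.15 ± 0.09) and Slpi, a protease inhibitor, at 136 to 223 FPKM (1.12).

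Adhesion, matrix and cytoskeletal genes rose more often than they fell. Integrins and adhesion molecules rose in 16 of 29 cases and fell in 8. Itga5, the fibronectin receptor chain, rose from 36.9 ± 1.2 to 156 ± 8.5 FPKM (2.49 ± 0.05) and Itgal, a chain of LFA-1, from 38.6 to 109 FPKM (1.900), while the laminin receptor chain Itga6 fell from 11.03 ± 0.38 to 1.57 ± 0.19 FPKM (-2.400 ± 0.07) and Itgb5 from 33.1 to 7.53 FPKM (-1.73). Among matrix genes 19 of 37 rose and 8 fell: the proteoglycan Vcan was at 1.54, 1.49 and 1.58 FPKM untreated and 23.5, 26.2 and 26.3 FPKM with oxLDL (4.45 ± 0.13), collagenase Mmp13 rose from 0.783 ± 0.044 to 14.3 ± 0.93 FPKM (4.59 ± 0.12), Mmp14 from 122 to 231 FPKM (1.33) and the syndecan Sdc4 from 20.7 to 88.8 FPKM (2.51), and Timp2 fell from 82.9 ± 2.5 to 16.4 ± 0.61 FPKM (-1.93 ± 0.05). Of 40 genes of the actin and migration machinery 30 rose and 3 fell (15 and 13 on library totals alone), with Rnd3 at 1.73 to 9.51 FPKM (2.86) and Cdc42ep2 at 9.52 to 31.2 FPKM (2.12) up and the filament-severing Gsn at 44.4 to 13.5 FPKM (-1.31) down. Vesicle traffic genes rose in 27 of 44 cases and fell in 9 (15 and 22 on library totals), with Rab32 higher at 83.4 to 186 FPKM (1.56) and Rab7b lower at 33.6 to 7.22 FPKM (-1.81).

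Of 31 growth and angiogenic factor genes 14 rose and 8 fell. Edn1, which encodes the vasoconstrictor endothelin-1, was at 0.261, 0.09604 and 0.0922 FPKM untreated and 32.1, 33.8 and 37.1 FPKM with oxLDL. Inhba, whose product forms activin A, was at 3.78, 3.61 and 3.51 FPKM untreated and 59.3, 58.98 and 60.4 FPKM with oxLDL (4.44 ± 0.07), and the groups of both genes lay far apart. The hepatocyte growth factor receptor Met rose from 13.5 ± 0.33 to 67.7 ± 2 FPKM (2.74 ± 0.05). Vegfa, the endothelial growth factor, fell from 10.4 ± 0.51 to 2.08 ± 0.39 FPKM (-1.91 ± 0.12), Igf1 from 22.7 ± 0.54 to 5.51 ± 0.2 FPKM (-1.63 ± 0.04) and the co-receptor Nrp1 from 29.8 to 7.72 FPKM (-1.54), whereas Nrp2 rose from 80.4 to 181 FPKM (1.58). In the transforming growth factor family 20 of 40 genes rose and 7 fell (10 and 11 on library totals). The type II receptor Tgfbr2, without which the ligand does not signal, fell from 25.6 ± 0.56 to 5.01 ± 0.078 FPKM (-1.94 ± 0.05), while the co-receptor Eng rose from 11.2 to 30.8 FPKM (1.87) and the signalling brake Skil from 11.9 to 27.2 FPKM (1.61). Notch genes rose in 7 of 16 cases and fell in 3 (4 and 6 on library totals): Jag1 rose from 3.31 to 14.98 FPKM (2.58), Notch1 from 3.82 to 14.1 FPKM (2.29) and the effector Rbpj from 14.99 to 35.8 FPKM (1.66), and Hes1, a classical target, was listed at 0 in both groups. Of 26 WNT genes 9 fell and 3 rose, with the co-receptor Lrp6 at 10.04 to 3.25 FPKM (-1.22).

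Receptors and channels for small molecules moved in both directions. The adenosine receptors Adora2a and Adora2b, which raise cyclic AMP, rose from 7.13 ± 0.85 to 46.5 ± 3.7 FPKM (3.11 ± 0.10) and from 2.39 ± 0.53 to 22.05 ± 0.87 FPKM (3.603 ± 0.15), while Entpd1, the CD39 enzyme that breaks down extracellular ATP, fell from 28.97 ± 0.49 to 7.902 ± 0.13 FPKM (-1.47 ± 0.04). Of 20 purine genes 7 rose and 7 fell (7 and 9 on library totals). Pde4b, which degrades cyclic AMP, rose from 3.39 to 16.6 FPKM (2.698). The G protein regulator Rgs2 was at 12.5, 14.8 and 13.8 FPKM untreated and 0.731, 0.614 and 0.684 FPKM with oxLDL (-3.92 ± 0.09), Rgs1 rose from 8.56 to 24.2 FPKM (1.91) and the arrestin Arrb1 fell from 20.05 ± 0.3 to 1.44 ± 0.18 FPKM (-3.38 ± 0.07). Among 40 channels 20 rose and 13 fell, with the potassium channels Kcna3 (0.599 to 7.92 FPKM, 4.12) and Kcnj2 (9.799 to 1.12 FPKM, -2.73) in opposite directions. In semaphorin, plexin and ephrin genes 7 of 31 rose and 8 fell, the largest fall being Plxnc1 (30.2 to 7.03 FPKM, -1.69).

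**Figure D4:**
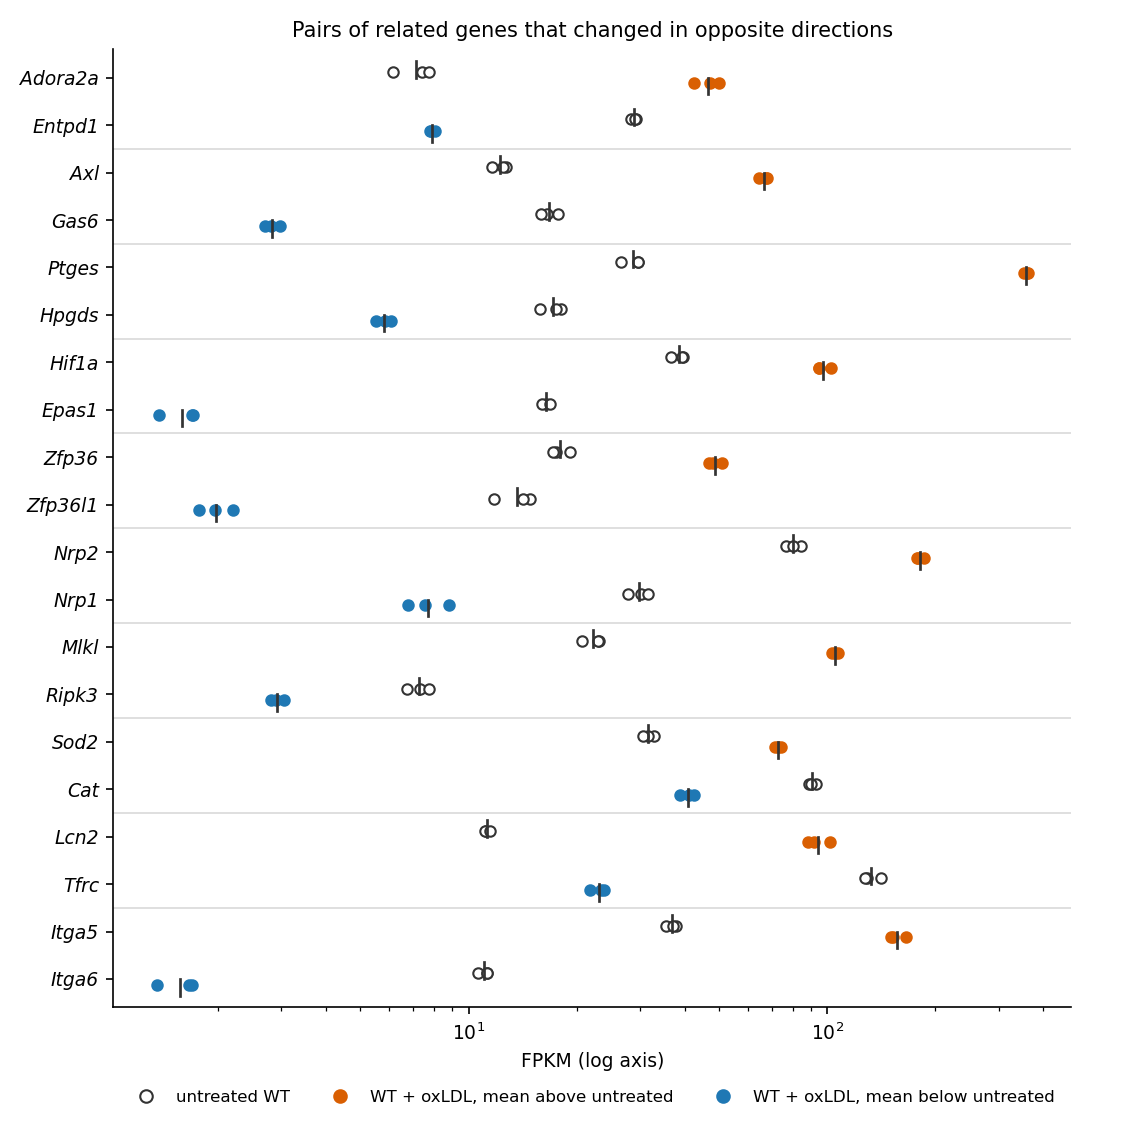
FPKM in each library (open circles untreated WT, filled circles WT with oxLDL, log axis) of 10 pairs of genes from the same family or pathway that changed in opposite directions, such as Adora2a and Entpd1, Axl and Gas6, or Ptges and Hpgds. In all 20 genes the 3 filled circles lie on one side of the 3 open circles.

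Transcription factors and the enzymes that end signalling rose more often than they fell. Of 37 early transcription factors 23 rose and 8 fell, with a relative median of 0.97. Batf2 was at 11.6, 9.78 and 8.73 FPKM untreated and 63.9, 58.5 and 61.3 FPKM with oxLDL (3.02 ± 0.14), Batf rose from 11.6 ± 0.68 to 53.2 ± 1.2 FPKM (2.61 ± 0.14), Ets2 from 10.1 ± 0.22 to 35.8 ± 0.8 FPKM (2.23 ± 0.05), and Hif1a, the oxygen-sensing factor, from 38.5 ± 1.6 to 97.3 ± 4.3 FPKM (1.74 ± 0.05). Junb was at 5.06, 6.73 and 8.27 FPKM untreated and 43.1, 10.5 and 10.8 FPKM with oxLDL, and its rise of 2.09 ± 0.51 was 1.09 without replicate 1 of WT with oxLDL, which stood far above the other treated libraries. A relative of Hif1a, Epas1, which encodes another hypoxia-inducible factor α subunit, fell from 16.5 ± 0.43 to 1.59 ± 0.19 FPKM (-2.96 ± 0.07), and Jun and Fos fell (-1.02 and -0.51). Of 29 phosphatases and mRNA decay factors 16 rose and 4 fell (9 and 11 on library totals): Dusp16 rose from 2.61 to 17.7 FPKM (3.17) and Zc3h12a, the ribonuclease Regnase-1, from 9.597 ± 0.63 to 61.9 ± 3 FPKM (3.095 ± 0.07). In the family that destabilises AU-rich mRNA, Zfp36 rose from 17.98 to 48.5 FPKM (1.84) while Zfp36l1 fell from 13.6 to 1.98 FPKM (-2.37) and Zfp36l2 from 32.3 to 13.8 FPKM (-0.82).

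Nuclear receptors and chromatin enzymes changed in both directions. Nuclear receptor genes rose in 11 of 32 cases and fell in 9 (7 and 14 on library totals). Pparg fell from 8.16 ± 0.051 to 0.714 ± 0.088 FPKM, and the aryl hydrocarbon receptor Ahr rose from 0.869 ± 0.082 to 3.61 ± 0.36 FPKM (2.46 ± 0.14). Of 57 chromatin enzymes 28 rose and 14 fell (15 and 30 on library totals). Kdm6b, the histone demethylase JMJD3, rose from 1.22 ± 0.13 to 4.46 ± 0.99 FPKM (2.27 ± 0.18), Tet2 from 3.76 to 8.202 FPKM (1.53) and Setdb2 from 3.82 to 10.8 FPKM (1.903), while Hdac5 fell from 7.69 ± 0.75 to 0.942 ± 0.19 FPKM (-2.601 ± 0.11) and the maintenance methyltransferase Dnmt1 from 31.8 to 11.5 FPKM (-1.06). Of 22 clock genes 10 fell and 2 rose, with Nr1d2 at 6.29 to 1.86 FPKM (-1.35) and Bhlhe40 at 40.97 to 15.1 FPKM (-1.03). Long non-coding RNAs rose in 6 of 25 cases and fell in 6 (4 and 10 on library totals). Mir155hg, the host transcript of miR-155, was at 0.806, 0.836 and 0.6695 FPKM untreated and 42.3, 41.02 and 44.7 FPKM with oxLDL (6.199 ± 0.27).

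Genes of proliferation and DNA repair fell far more often than they rose. Of 30 DNA replication genes 20 fell and 2 rose (relative median -0.69), of 34 DNA repair genes 22 fell and 2 rose, or 1 without replicate 1 or 2 of untreated WT or replicate 1 or 3 of WT with oxLDL (-0.63) and of 30 mitosis genes 19 fell and 2 rose (-0.57). Mcm3, a subunit of the replicative helicase, was at 13.04, 13.1 and 12.9 FPKM untreated and 6.77, 6.95 and 6.39 FPKM with oxLDL (-0.55 ± 0.06), and Parp1, which senses DNA breaks, fell from 23.98 ± 0.8 to 7.901 ± 0.51 FPKM (-1.19 ± 0.05). Chek2, a checkpoint kinase, was at 5.29, 5.51 and 6.21 FPKM untreated and 0.5504, 0.4098 and 0.606 FPKM with oxLDL (-3.005 ± 0.13), the largest fall of the repair list. Mki67, the proliferation marker Ki-67, went against its list and rose from 14.1 ± 0.51 to 23.6 ± 0.91 FPKM (1.15 ± 0.07), whereas Top2a fell (4.72 to 2.18 FPKM, -0.702) and Cdk1 did not pass at 1.14 and 0.711 FPKM. Pcna did not pass either, at 53.6 and 40.5 FPKM, and both fell on library totals (-0.68 and -0.41). Among 33 p53 and cell cycle brake genes 12 rose and 14 fell: Cdkn1a, the inhibitor p21, rose from 16.7 to 36.6 FPKM (1.54) and Cdkn1b, the inhibitor p27, fell from 7.05 to 2.58 FPKM (-1.04).

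Survival genes mostly rose, and death genes were split. Of 10 survival genes 8 rose and 1 fell, and of 18 death genes 9 rose and 6 fell (7 and 9 on library totals). Cflar, which blocks caspase-8, was at 25.3, 24.1 and 24.01 FPKM untreated and 90.7, 95.8 and 98.3 FPKM with oxLDL (2.36 ± 0.05), and Bcl2a1d and Bcl2a1a rose by 2.32 ± 0.11 and 2.298 ± 0.09, although these copies of 1 gene family resemble each other closely and reads may have been shared. Bcl2l11, which encodes the death activator BIM, fell from 8.17 ± 0.42 to 1.103 ± 0.12 FPKM (-2.48 ± 0.07). Mlkl, the executor of necroptosis, rose from 22.3 ± 1.3 to 105 ± 1.7 FPKM (2.64 ± 0.06) and Ripk3, the kinase that activates it, fell from 7.29 ± 0.52 to 2.93 ± 0.13 FPKM (-0.902 ± 0.10). Oxidase subunits rose in 5 of 7 cases and fell in 0 (4 and 3 on library totals), with Rac2 at 74.3 to 145 FPKM (1.38). Antioxidant genes rose in 10 of 20 cases and fell in 6 (6 and 9 on library totals): the mitochondrial Sod2 rose from 31.7 to 72.96 FPKM (1.61) while the cytosolic Sod1 fell from 10.6 to 5.03 FPKM (-0.66), catalase Cat from 90.8 to 40.9 FPKM (-0.74), Gpx1 from 136 to 53.6 FPKM (-0.93) and Gpx4 from 75.5 to 36.2 FPKM (-0.65).

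Genes known from the resident macrophages of the peritoneum were mostly low in both groups. Gata6, the transcription factor that defines the large resident cells, was at 0.2298, 0.278 and 0.241 FPKM untreated and 0.0608, 0.152 and 0.0844 FPKM with oxLDL; its fall passed (-0.94 ± 0.33) but not without replicate 2 or 3 of untreated WT or replicate 1 or 3 of WT with oxLDL. Icam2 averaged 2.15 and 0.891 FPKM, Vsig4 1.21 and 0.718 FPKM (a fall that passed on library totals, -0.75) and coagulation factor F5 0.347 and 0.151 FPKM, so these defining markers were low in both groups. Of the 34 genes of the list 11 rose and 11 fell (8 and 15 on library totals). Saa3 and F10, which belong to it, rose as given for the secreted proteins. Markers of alternative activation rose in 7 of 21 cases and fell in 8, with the transglutaminase Tgm2 higher at 95.03 to 173 FPKM (1.27) and Chil3 not passing at 108 and 79.2 FPKM, although it fell on library totals (-0.44). Metal transport genes rose in 8 of 16 cases and fell in 7 (3 and 9 on library totals), and the metallothionein Mt1 fell from 27.5 to 11.9 FPKM (-0.801) while Mt2 rose by 0.62 but did not pass on library totals (0.21).

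Many large changes lay outside every list. Of the 15316 tested genes outside every list 3290 rose (21.5%) and 4107 fell (26.8%). Among those called with at least 10 FPKM in the higher group the balance was the other way. There 1447 rose and 868 fell, 392 and 175 of them by at least 2-fold. These counts were not made on library totals, where fewer genes rise. U90926, a transcript of little-known function, was at 0.773, 0.504 and 0.502 FPKM untreated and 40.6, 52.4 and 52.5 FPKM with oxLDL (6.69 ± 0.30), and Lipg, the endothelial lipase that acts on lipoproteins, at 0.201, 0.193 and 0.141 FPKM untreated and 9.54, 10.99 and 11.8 FPKM with oxLDL (6.31 ± 0.27). Treated and untreated libraries of both were far apart. Ch25h, which makes 25-hydroxycholesterol, was at 0.584, 0.445 and 0.556 FPKM untreated and 22.98, 22.8 and 21.9 FPKM with oxLDL (5.79 ± 0.20). Ifng, the interferon-γ gene that is better known from lymphocytes and is a cytokine the standard lists do not hold, rose from 0.586 ± 0.12 to 15.1 ± 1.2 FPKM (5.07 ± 0.33). The summed level of 7 natural killer cell markers was 2.14 to 2.94 FPKM untreated and 3.18 to 3.86 FPKM with oxLDL. Of these markers 1 rose, 0 fell and 6 averaged under 1 FPKM in both groups. The part of such cells in the value of Ifng was not tested. Ntng2, a netrin relative, rose from 0.934 to 17.9 FPKM (4.66), Cd69, an early activation receptor, from 1.41 to 15.3 FPKM (3.84), Slamf9 from 2.13 to 22.8 FPKM (3.83) and the pantetheinase relative Vnn3 from 6.72 to 69.5 FPKM (3.77). AA467197, also known as Nmes1, rose from 4.91 ± 0.81 to 93.7 ± 13 FPKM (4.65 ± 0.14) and the protease inhibitors Serpina3f and Serpina3g by 3.79 and 3.66. Hspa1a and Hspa1b, inducible chaperone genes that are near-identical copies, rose by 4.62 ± 0.53 and 5.11 ± 0.63. Hspa1a was at 0.527, 0.977 and 0.752 FPKM untreated and 27.5, 7.13 and 6.69 FPKM with oxLDL. Hspa1b was at 0.361, 0.478 and 0.593 FPKM untreated and 26.7, 5.58 and 5.11 FPKM with oxLDL. In both, replicate 1 of WT with oxLDL stood far above the other treated libraries, and without it the rises were 3.62 and 3.89.

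Downward, St6gal1, which caps glycoproteins with sialic acid, was at 12.3, 11.9 and 12.1 FPKM untreated and 0.329, 0.235 and 0.2605 FPKM with oxLDL (-5.02 ± 0.09). Arhgap19, a GTPase-activating protein, was at 31.1, 34.9 and 32.8 FPKM untreated and 0.969, 0.872 and 0.951 FPKM with oxLDL (-4.73 ± 0.06), and no treated library came near the untreated ones. Enzymes of lysosomal sugar breakdown were among the falls: the hyaluronidase Hyal1 fell from 13.8 ± 0.47 to 1.07 ± 0.17 FPKM (-3.27 ± 0.10) and the sulfatase Sgsh from 19.9 ± 0.82 to 1.85 ± 0.28 FPKM (-3.03 ± 0.09). Slc37a2, a sugar phosphate carrier, fell from 25.8 ± 1.5 to 2.59 ± 0.11 FPKM (-2.904 ± 0.05), Dio2, which activates thyroid hormone, from 22.8 to 2.44 FPKM (-2.82) and Pdxk, which activates vitamin B6, from 63.2 ± 0.41 to 9.54 ± 0.69 FPKM (-2.32 ± 0.05). Tsc22d3, the glucocorticoid-induced leucine zipper, fell from 19.2 ± 0.32 to 2.55 ± 0.5 FPKM (-2.51 ± 0.11), the inhibitory receptor Cd300a from 53.2 to 6.03 FPKM and the translation kinase Mknk2 from 43.5 to 6.58 FPKM (-2.32). Aph1c, a γ-secretase subunit (-3.03), Klc4, a kinesin light chain (-2.85), and Tns1, a focal adhesion protein (-2.96), fell as well.

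Few genes went from silent to expressed or back. Counting genes under 0.1 FPKM in all 3 libraries of one group and at least 1 FPKM in all 3 of the other, 8 appeared with oxLDL and 8 disappeared, and all 16 passed edgeR's test. Those that appeared included the homeobox gene Lhx2 (0.0622 to 2.43 FPKM), Shisa3 (0.0257 to 2.32 FPKM), Trem1, the nucleotidase Nt5c1a (0.0135 to 1.46 FPKM) and the glutamate transporter Slc1a2 (0.0629 to 1.27 FPKM). Those that disappeared included Nlrp1b (2.63 to 0.0724 FPKM), Cd28 (1.92 to 0.0842 FPKM), the ubiquitin ligase Rnf150 (1.64 to 0.0726 FPKM), the fatty acid carrier Slc27a6 (1.27 to 0.0251 FPKM) and the Fc receptor-like gene Fcrl1 (1.14 to 0.0711 FPKM). Cd28 is 1 of the 9 T cell markers summed above, so its fall is part of the fall of that sum. Of the 9 markers 2 fell and 1 rose. The T cell receptor segment Trav14n-3 fell too (1.205 to 0.0325 FPKM). With the limits at 0.2 and 0.5 FPKM the counts were 62 and 85, so they depend on the limits.

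Large changes also lay side by side on chromosomes. Runs of at least 4 neighbouring tested genes that all changed at least 4-fold in 1 direction numbered 12 upward, with 61 genes, and 3 downward, with 12 genes. Several were interferon-response families: the Ifi200 genes on chromosome 1 (deposited positions 173747293 to 174044411 for a run of 8 genes that holds Ifi204 and Ifi205), the guanylate binding proteins on chromosome 3, the Ifit genes on chromosome 19, the Phf11 genes on chromosome 14 and the Trim30 genes on chromosome 7. Others were not. The formyl peptide receptors Fpr1, Fpr2 and Fpr3 stood together with Has1 and Spaca6 on chromosome 17 (17827158 to 17971677), and Pnp, Pnp2 and Rnase10 on chromosome 14 (50931082 to 51010758). The nucleoside transporters Slc28a2 and Slc28a2b lay in a run on chromosome 2 (122426477 to 122528040), and Inhba in a run with transcripts of low level on chromosome 13. Downward, Arhgap19 fell with its neighbours Slit1, Frat1 and Frat2, which were under 1 FPKM in all libraries, on chromosome 19 (41600257 to 41848132), and 4 T cell receptor α segments fell together on chromosome 14. Whether counting used the strand is not known, and transcripts of overlapping neighbours could then not be told apart.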

How the data were processed

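Gene counts and FPKM values are the authors' deposited values, 1 table for 12 libraries, 6 of them used here for the comparison. The submitters' processing notes name HISAT2 2.0, Bowtie 0.12.2 and mm8; 99.9% of 21986 genes matched by Entrez ID overlap their GRCm38.p6 position, so positions are printed as deposited. For the counter, the annotation and the use of strand, the sources used here give nothing. Counts were fitted with edgeR 4.0.16 (quasi-likelihood, TMM, filterByExpr, all 12 libraries, R 4.3.3) after tests on simulated data. The alternatives were limma 3.58.1 on log2(FPKM + 1) and log2(FPKM + 0.1), DESeq2 1.42.0, other scalings and filters, a replicate block and leaving out each library. Ranks and shares came from FPKM (Python 3.11.15).

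The 60 gene lists and the rule for naming genes were chosen with earlier results of these data known. Named were, per list, up to 2 called rises and 2 falls with at least 5 FPKM and preset key genes; the 20 most abundant; 12 rank climbs and drops; 20 rises and falls outside the lists with at least 10 FPKM; switched genes; and runs of neighbours. Some genes that this rule names are not reported here. Named after their values were seen were genes entering or leaving the highest 100, climbs outside the standard lists, and Acaa2, Alox5ap, Atg7, Atp6v0a1, Bcl2a1a, Bcl2a1d, Cdc42ep2, Cdkn1b, Flvcr1, Gart, Gpi1, Gpx4, Gusb, Hmox1, Itgal, Mcm3, Mdh1, Mitf, Rbpj, Samhd1, Skil, Slc15a3, Slc2a3, Sod1, Tap2, Tbxas1, Tnfsf15, Tpi1 and Umps. Of the list symbols 15 were not found and are not analysed here.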

Additional observations from a re-analysis of the deposited data

How the results depend on the processing

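The number of genes called, 8848, stayed within 1.5 times under every alternative run: 10544 on library totals alone, 8834 with RLE size factors, 9058 with DESeq2, 10763 and 10872 with limma on log2(FPKM + 1) and log2(FPKM + 0.1), 8350 without the filter on low counts, 8558 from the 6 WT libraries alone, and 8176 to 8465 when 1 library was left out. The split by direction did not. Library totals gave 2222 rises and 8322 falls, limma 2482 and 8281 with a pseudocount of 1 and 2439 and 8433 with 0.1, against 4140 and 4708. Deviations of same-numbered libraries from their group means had correlations of -0.0213, 0.00173 and -0.0202. Such values cannot show whether same-numbered libraries were prepared together, and replicate 2 was the shallowest in both groups. With the replicate block 8603 genes were called. Of the 270 genes given with values 1, Slc2a3, changed side (-0.71) and 0 changed direction.

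Of those 270 genes 253 kept direction and side on library totals, 254 and 253 with limma with 1 and 0.1, and 267 to 268 when 1 library was left out. Under library totals and limma with 1 and 0.1, in that order, the direction turned for B2m (-0.0254, -0.0244 and -0.0244), Cd68 (-0.24, -0.24 and -0.24), H2-D1 (-0.18, -0.18 and -0.18) and Pcna (-0.41, -0.40 and -0.41), as each had a TMM change smaller than the shift between scalings. Among list medians relative to all genes, that of WNT genes turned to 0.109 and 0.0234 with the 2 limma fits and that of sphingolipids to -0.0339 with a pseudocount of 1; the cause was not tested. Library totals moved 0 of the 60 medians beyond the replicate spread. This was built in, as that change of scaling shifts nearly all genes alike and the relative median takes the shift out. With limma 43 of the 60 moved and 2 turned at a pseudocount of 1, and 27 moved and 1 turned at 0.1. Without the filter on low counts 15 moved, and leaving out 1 library moved 3 to 10. Shared genes among the highest 100 numbered 60 to 71, and among the highest 500 339 to 356, over ranks by counts, median ranks and leaving out libraries. Limits of 0.2 and 0.5 FPKM gave 62 genes switched on and 85 off, against 8 and 8. Promoter motif shares were not run, as promoter sequences were not analysed here.

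Depth limits genes of low level: changes under 1 FPKM rest on few reads, and 3 libraries per group leave intervals wide.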

Other observations

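The pathway names in the deposited annotation, read without the genes of the standard inflammatory lists, give groups that were not lists of their own above. Genes of the other lists were not taken out, so these counts can hold genes already counted above, such as those of fatty acid oxidation. They were chosen after their values were seen, so they are given as descriptions with no test of the group, and groups share members. Of 47 tested genes of valine, leucine and isoleucine degradation 31 fell and 7 rose (median log2 change relative to all genes -0.53), of 28 genes of propanoate metabolism 20 fell and 4 rose (-0.55), and of 26 genes of glyoxylate and dicarboxylate metabolism 19 fell and 1 rose (-0.66). Among the falls, Bckdha, a subunit of the branched-chain dehydrogenase, fell from 9.89 ± 0.45 to 3.13 ± 0.46 FPKM (-1.25 ± 0.12), Ivd, which handles the leucine product, from 7.53 to 2.35 FPKM (-1.27), Pccb, a propionyl-CoA carboxylase subunit, from 8.88 ± 0.61 to 2.05 ± 0.12 FPKM (-1.71 ± 0.08), Mcee from 10.6 to 4.02 FPKM (-0.99) and the methylmalonyl-CoA mutase Mmut from 9.51 to 4.27 FPKM (-0.75). Oxct1, which lets cells burn ketone bodies, was at 66.8, 70.5 and 70.8 FPKM untreated and 18.6, 21.3 and 21.1 FPKM with oxLDL (-1.36 ± 0.05), and the groups did not overlap. Glul, the glutamine synthetase, fell from 39.6 ± 0.79 to 7.81 ± 0.49 FPKM (-1.94 ± 0.05).

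Genes of the JAK-STAT pathway rose more often than they fell, while some of its receptors fell. Of its 96 tested genes outside the standard lists 49 rose and 17 fell (median log2 change relative to all genes 0.49). Jak2 was at 33.7, 31.4 and 31.02 FPKM untreated and 158, 169.6 and 172 FPKM with oxLDL (2.79 ± 0.06) and Csf3r, the receptor for G-CSF, rose from 61.1 ± 2.1 to 138 ± 4.1 FPKM (1.59 ± 0.06). Ifngr1, a chain of the interferon-γ receptor, fell from 45.5 ± 1.5 to 13.8 ± 0.54 FPKM (-1.31 ± 0.05), and both chains of the interleukin-6 receptor fell, Il6ra from 9.04 to 3.02 FPKM (-1.17) and Il6st from 16.2 to 6.704 FPKM (-0.87). Of 34 ABC transporter genes 20 fell and 8 rose. Abcg3 was at 8.604, 9.42 and 9.73 FPKM untreated and 0.471, 0.363 and 0.288 FPKM with oxLDL (-4.21 ± 0.14) and Abcc3 fell from 8.38 to 1.76 FPKM (-1.84), while Abcc1 rose from 14.2 to 24.3 FPKM (1.18).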
